A study of Macaca mulatta with 12 samples.

Results

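GABA-A receptor subunits were examined in the dorsal raphe nucleus of ovariectomized female rhesus macaques through every probe set whose single gene symbol in the platform's probe table was GABRA2, GABRA3, GABRA5, GABRA6, GABRB1, GABRB2 or GABRD. These were 8 probe sets for 7 genes, 2 of them for GABRA2, out of 12625 probe sets and 8226 named genes on the array, and 5 were bright enough to be tested. Each of 12 monkeys gave 1 human Affymetrix expression array, and subcutaneous Silastic capsules had been in place for 1 month. The 4 groups of 3 monkeys carried placebo, estrogen alone, progesterone alone, or estrogen and progesterone together. The code OVX, for ovariectomy, stands in the labels of the placebo monkeys alone, and the steroid-treated monkeys are taken as ovariectomized from what is known of the study. No age or capsule dose is stated in the labels. The progesterone arrays were assigned by their source names (P1 to P3), because their titles carry the codes of the combined group.

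GABA-A receptors are chloride channels opened by the inhibitory transmitter GABA, and each is assembled from several subunits drawn from the alpha, beta, gamma and delta families. GABA binds where an alpha meets a beta subunit, the alpha subunit shapes the response to benzodiazepines, and delta-containing receptors lie outside synapses and respond strongly to neurosteroids. In the raphe, GABA released onto serotonin neurons restrains their firing, and allopregnanolone, a metabolite of progesterone, is a positive modulator of the receptor. The groups allow each steroid's effect on these transcripts to be read with and without the other. In the RefSeq macaque annotation (T2T-MMU8v2.0) GABRB2 and GABRA6 lie on 1 chromosome with 1 other protein-coding gene between them. GABRA2 and GABRB1 share another chromosome, with 2 protein-coding genes between them.

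Values are deposited intensities on a linear scale with the SD over 3 arrays, and changes are differences of quantile-normalized log2 values with their standard error (SE). Calls used limma at an adjusted p of 0.05, by Benjamini-Hochberg over all 7535 probe sets that were tested. Human probes were read with macaque RNA, so levels of different subunits are not compared. Each array had the same trimmed mean of intensity as deposited, and medians lay between 74.2 and 87.1. Ribosomal signal set apart estrogen array 1 and combined array 1, at 841 and 1354 on the 28S RNA control against at most 179 elsewhere. The ratio of the 3' to the 5' GAPDH control was also highest there, at 2.45 and 2.05 against 0.89 to 1.46 elsewhere. On principal component 1 they lay at 39.1 and 28.6, and all other arrays between −13.6 and −1.28. Placebo array 1 stood apart on principal component 2, at 33.8. The progesterone arrays lay lowest on it, at −18.2, −9.18 and −16.0, and the remaining arrays lay between −5.41 and 5.12. What set the progesterone arrays apart was not tested. Of 12 serotonin neuron markers, 10 had a probe set, and TPH2 and HTR1A had none under a single gene symbol. The serotonin transporter SLC6A4 read 220.3 to 495 over the 12 arrays, FEV, a transcription factor of serotonin neurons, read 104 to 289, and TPH1 stayed below the log offset of 8.26 on every array.

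**Figure D1:**
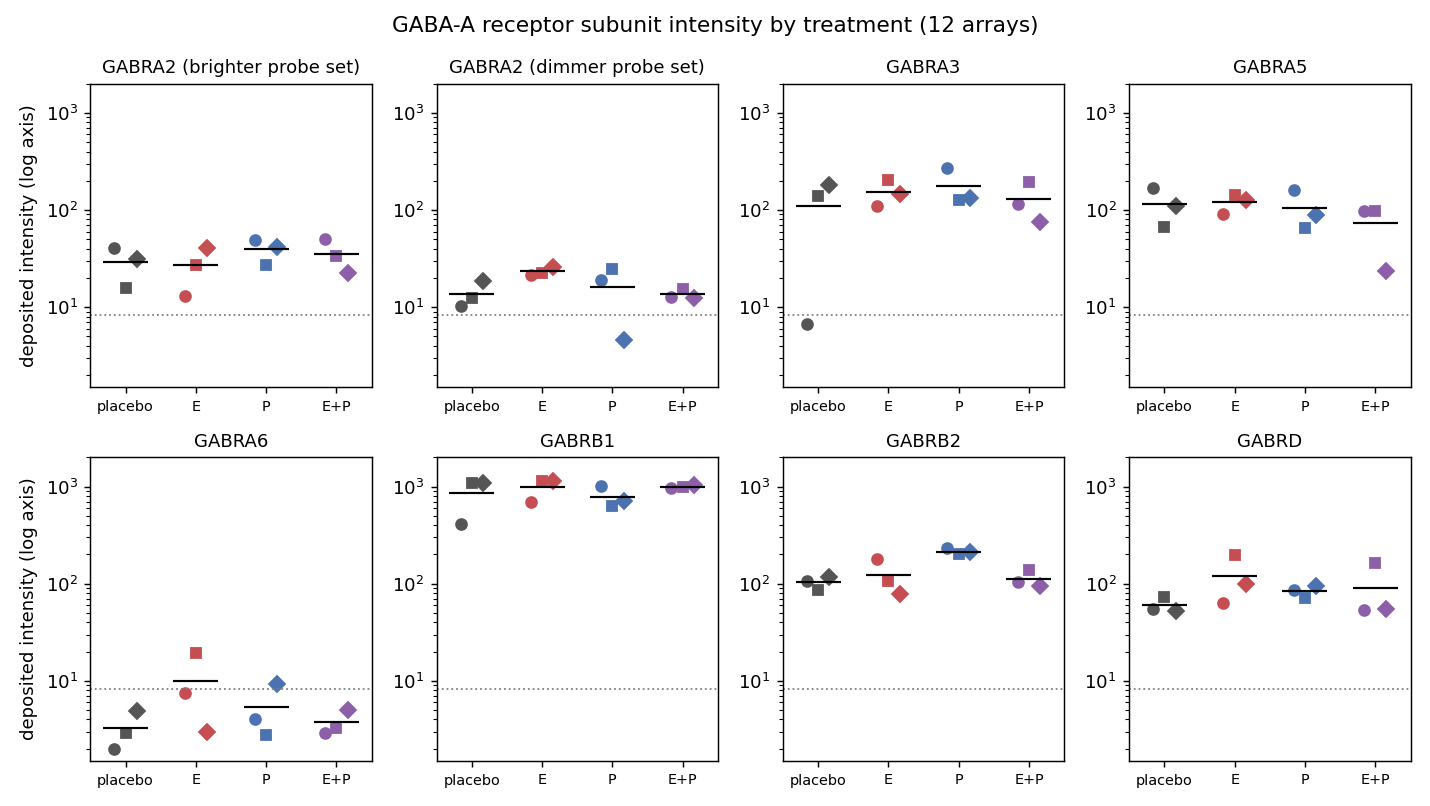
Deposited intensity (logarithmic vertical axis) of the 8 subunit probe sets in the placebo, estrogen (E), progesterone (P) and combined (E+P) groups; circles, squares and diamonds are replicates 1, 2 and 3, black bars are group means and the dotted line is the log offset of 8.26. The 3 progesterone arrays of GABRB2 lie between 200.01 and 233, above the other 9 arrays, while GABRA3 and GABRB1 are lowest on placebo array 1 and GABRD is highest on estrogen array 2 and combined array 2.

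No subunit probe set passed the adjusted threshold in any comparison. With progesterone alone GABRB2, a beta subunit common in synaptic receptors, read above the whole placebo range on all 3 arrays, and with both hormones its values overlapped placebo. The other tested members were the alpha subunits GABRA3 and GABRA5, the beta subunit GABRB1 and the delta subunit GABRD. For each of these, the range within at least 1 group was wider than the largest difference between group means. GABRB2 came close to this, with estrogen arrays from 78.5 to 182 and group means from 104 to 214. The 5 tested members had a median log2 change of 0.27 with estrogen, 0.42 with progesterone and 0.31 with both, while the medians over all tested probe sets were −0.0049, 0.0026 and −0.0048. Members with a change above 0 numbered 5, 3 and 4 of 5. These summaries depend on single arrays. Without placebo array 1 the medians were 0.22, 0.21 and −0.13 and the members above 0 numbered 3, 4 and 2 of 5. Without combined array 2 the median with both hormones was −0.082, with 2 of 5 above 0. Over all tested probe sets the adjusted threshold was passed by 0% with estrogen, 0.0398% with progesterone and 0.0133% with both. At an unadjusted p under 0.05 the shares were 3.16%, 8.24% and 3.41%, and the members at that level were 0, 1 and 0 of 5. The 3 comparisons share the placebo arrays.

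**Figure D2:**
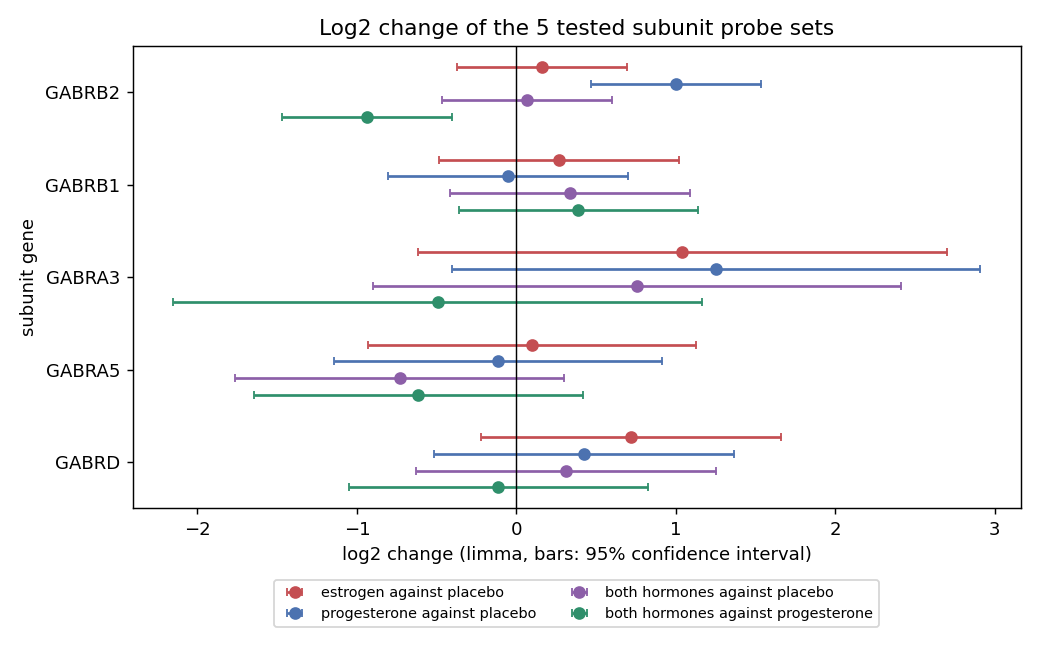
Log2 change (horizontal axis, limma estimate with its 95% confidence interval as bars) of the 5 tested subunit probe sets for the 3 comparisons with placebo and for both hormones against progesterone alone. The intervals of GABRB2 lie off 0 for progesterone against placebo (0.47 to 1.54) and for both hormones against progesterone (−1.47 to −0.41), and every other interval drawn includes 0.

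GABRB2 read 107, 86.9 and 117 on placebo arrays 1 to 3, and 182, 108 and 78.5 on the estrogen arrays. It read 233, 200.01 and 210.1 on the progesterone arrays, and 105, 139.8 and 94.6 on the combined arrays. The progesterone values were high on all 3 arrays and closely spaced, the estrogen values spread widely around the placebo range, and the combined values overlapped placebo. Group means were 104 ± 15.5 (SD, n = 3) for placebo, 123 ± 53.2 under estrogen, 214 ± 16.8 under progesterone and 113 ± 23.7 under the combination. In order of level these ran placebo, both hormones, estrogen and progesterone, and the first 3 of these groups overlapped.

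The log2 change of GABRB2 with progesterone was 1.003 ± 0.24 (SE), with an unadjusted p under 0.05 and a limma adjusted p = 0.314, which did not pass. An unadjusted p under 0.05 was reached by 621 probe sets in this comparison. All 3 progesterone arrays lay above all 3 placebo arrays, as they did for 8.57% of tested probe sets, and above all 9 other arrays, as they did for 2.2%. The adjusted p lay between 0.0779 and 0.687 over 24 alternative settings, with log2 values from 0.87 to 1.07. Against progesterone alone, the combined treatment gave −0.94 ± 0.24 (SE, limma adjusted p = 0.338), with all 3 combined arrays below all 3 progesterone arrays, as for 7.82% of tested probe sets. Both values use the same 3 progesterone readings. Across all tested probe sets 0.0133% passed the adjusted threshold in that second comparison and 7.74% had an unadjusted p under 0.05.

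Where estrogen was present, GABRB2 showed no such separation. Its log2 change was 0.16 ± 0.24 (95% interval −0.37 to 0.70) with estrogen and 0.064 ± 0.24 (−0.47 to 0.60) with both hormones, each against placebo. The estrogen value turned to −0.11 when estrogen array 1, which read highest in its group and had high ribosomal signal, was left out. Adding progesterone to estrogen gave −0.099 ± 0.24 (−0.63 to 0.43), and 0.17 without that array. The interaction, which is the change with both hormones less the sum of the changes with each alone, was −1.10 ± 0.35 for GABRB2 (SE, limma adjusted p = 0.925). No probe set passed for the interaction by limma (0%), 4.99% had an unadjusted p under 0.05, and the other tested members gave 0.12 for GABRB1, −0.71 for GABRA5, −0.83 for GABRD and −1.53 for GABRA3. For both hormones against estrogen, 0% of probe sets passed and 2.85% had an unadjusted p under 0.05, none of them a member. Limma's F test over the 4 groups gave GABRB2 an adjusted p of 0.505, where 0.0531% of probe sets passed and 5.8% had an unadjusted p under 0.05.

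Cell type marker lists were summed and counted by group, and no marker passed the adjusted threshold. The summed intensity of the 10 serotonin neuron markers was 1262 to 1409 on the progesterone arrays and 1488 to 1829 on the placebo arrays, which do not overlap, with TPH1 below the offset throughout. It was 1590 to 1743 with estrogen and 1381 to 1811 with both hormones. Of 9 such markers tested, 1 was higher and 8 were lower with progesterone, with a median of −0.35, and 0 passed by limma (2 at an unadjusted p under 0.05, SLC6A4 and GATA3). Over all tested probe sets 4.31% were lower at that level, and 8.24% had all progesterone arrays below all placebo arrays. The 13 general neuron markers summed to 34935 to 39167 with progesterone and 32021 to 37068 with placebo, which overlap. Of these, 8 were higher and 5 lower with progesterone (median 0.055). ELAVL3, of this list, read 1012 ± 192 (SD, n = 3) for placebo, 753 ± 209 under estrogen, 1464 ± 130 under progesterone and 783 ± 210 under the combination. For both hormones against progesterone it gave −0.90 ± 0.25 (SE, limma adjusted p = 0.412), where 6 of the 13 were higher and 7 lower. The 8 astrocyte markers summed to 6495 to 6718 with progesterone. With placebo they summed to 3419 on array 1, and to 6676 and 7121 on arrays 2 and 3. Of these 8, 5 were higher and 3 lower with progesterone (median 0.096). At an unadjusted p under 0.05, 2 were lower, SOX9 and GFAP. The transcription factor SOX9 read 297 ± 13.7 (SD, n = 3) for placebo, 165 ± 26.9 under progesterone and 286 ± 9.7 under the combination. Its group mean was lowest where that of GABRB2 was highest. Its log2 values were −0.80 ± 0.16 for progesterone against placebo and 0.74 ± 0.16 for both hormones against progesterone (SE, limma adjusted p = 0.174 and 0.228). The filament protein GFAP gave −0.42 ± 0.16 with progesterone (SE, limma adjusted p = 0.531). For both hormones against progesterone 4 astrocyte markers were higher and 4 lower, with S100B at −0.67 ± 0.25 (adjusted p = 0.527), opposite to SOX9. Of 6 microglia markers tested, 5 were higher and 1 lower with progesterone (median 0.32). With both hormones against progesterone, 1 was higher and 5 lower (median −0.39). The microglial receptors CD14 and CX3CR1 gave 1.198 ± 0.45 and −0.52 ± 0.23 with progesterone (SE, limma adjusted p = 0.529 and 0.576), CX3CR1 being the 1 that was lower. The part of these marker differences in the GABRB2 values was not tested. In tissue homogenates fewer cells of a type and less RNA per cell cannot be told apart.

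GABRB1, the other beta subunit measured, did not share the GABRB2 pattern on these arrays. It read 409, 1093 and 1080 on the placebo arrays, 692, 1130 and 1132 with estrogen, 1011, 633 and 708 with progesterone, and 962, 988 and 1038 with both hormones. Placebo array 1 was the lowest of the 12, the combined arrays were closely spaced, and the groups overlapped. Group means were 861 ± 391 (SD, n = 3), 984 ± 253, 784 ± 199.99 and 996 ± 38.6 in that order. The log2 changes against placebo were 0.27 ± 0.34 with estrogen, −0.052 ± 0.34 with progesterone (95% interval −0.80 to 0.70) and 0.34 ± 0.34 with both. Without placebo array 1 they were −0.20, −0.52 and −0.13, so 2 of the 3 changed sign.

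GABRA3 encodes the alpha subunit best known from monoamine neurons, serotonin neurons among them. It read 6.77, 140.4 and 181 on the placebo arrays, 109, 201 and 146 with estrogen, 272, 126 and 134 with progesterone, and 116, 194 and 75.7 with both hormones. Placebo array 1 alone lay under the offset, and the other 11 arrays ranged from 75.7 to 272 with overlap between all groups. The resulting log2 changes of 1.04 ± 0.76 with estrogen, 1.25 ± 0.76 with progesterone and 0.76 ± 0.76 with both (SE, limma adjusted p = 0.999, 0.719 and 0.999) rest on that array. Without it they were −0.11, 0.099 and −0.39.

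GABRA5 encodes an alpha subunit found largely in receptors that carry tonic inhibition. It read 169, 66.3 and 110.2 with placebo, 91.2, 143 and 126 with estrogen, 162 on progesterone array 1 and 65.2 and 89.5 on the other two, and 97.6, 97.1 and 23.4 with both hormones. The lowest value was combined array 3, and all groups overlapped. Log2 changes were 0.098 ± 0.47 with estrogen, −0.12 ± 0.47 with progesterone and −0.73 ± 0.47 with both (SE, limma adjusted p = 0.999, 0.978 and 0.999). The last was −0.19 without combined array 3.

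GABRD encodes the delta subunit of extrasynaptic, neurosteroid-sensitive receptors and is abundant in cerebellar granule cells. It read 55.2, 72.3 and 52.5 with placebo, 62.7, 196 and 99.2 with estrogen, 85.4, 71.1 and 95.4 with progesterone, and 53.5, 165 and 54.9 with both hormones. Estrogen array 2 and combined array 2 stood above the other 10 arrays, which lay between 52.5 and 99.2. Means were 60.01 ± 10.7 (SD, n = 3), 119 ± 68.7, 84.0 ± 12.2 and 91.2 ± 64.1. The log2 changes were 0.72 ± 0.43 with estrogen, 0.42 ± 0.43 with progesterone and 0.31 ± 0.43 with both (SE, limma adjusted p = 0.999, 0.850 and 0.999). Without estrogen array 2 the estrogen value was 0.31, and without combined array 2 the value for both hormones was −0.18. As deposited, placebo array 2 overlapped the progesterone arrays, and after quantile normalization the progesterone arrays lay above all placebo arrays, as they did for 8.56% of tested probe sets.

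GABRA6, an alpha subunit largely restricted to cerebellar granule cells, was near the floor. It read 1.98, 2.91 and 4.84 with placebo, 7.55, 19.5 and 2.97 with estrogen, 4.06, 2.75 and 9.26 with progesterone, and 2.88, 3.29 and 5.05 with both hormones. Estrogen array 2 and progesterone array 3 exceeded the offset of 8.26, and the other 10 of 12 readings were below it. No change of GABRA6 was detectable at this signal. In the limma fit without the filter its log2 values were 0.50 ± 0.32 with estrogen, 0.17 ± 0.32 with progesterone and 0.022 ± 0.32 with both, on a scale where the offset compresses such readings.

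Of 11 cerebellum markers tested, 3 (ZIC1, CALB1 and CBLN1) read higher on estrogen array 2 and combined array 2, the arrays with the most GABRD, than on the other 10 arrays, and 8 did not. ZIC1, a transcription factor of cerebellar granule cells, read 462 on estrogen array 2 and 275 on combined array 2, against 79.1 to 183 on the other 10 arrays. CALB1, a calcium-binding protein of Purkinje cells, read 223 and 114 on those arrays and at most 85.9 elsewhere. The cadherin CDH15 was not high there, at 179 and 186 on those arrays against 131 to 343 elsewhere. PAX6, another granule cell factor, read 388 and 277, inside its range of 248 to 477 on the other arrays. The summed intensity of these 11, of 16 on the list, was 6028 on estrogen array 2 and 5180 on combined array 2. It was 4416 to 5765 on the other 10 arrays, so the first lay above that range and the second inside it. The largest part of each sum was GRM4, at 2590 and 2379 on those arrays, inside its range of 1600 to 3148 elsewhere. None of these 11 markers was below the offset on every array. Their group ranges were 4594 to 5409 with placebo, 4862 to 6028 with estrogen, 4795 to 5765 with progesterone and 4416 to 5180 with both hormones. The part of cerebellar transcripts in the GABRD values was not tested beyond leaving both arrays out, which gave GABRD 0.31 with estrogen and −0.18 with both hormones.

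**Figure D3:**
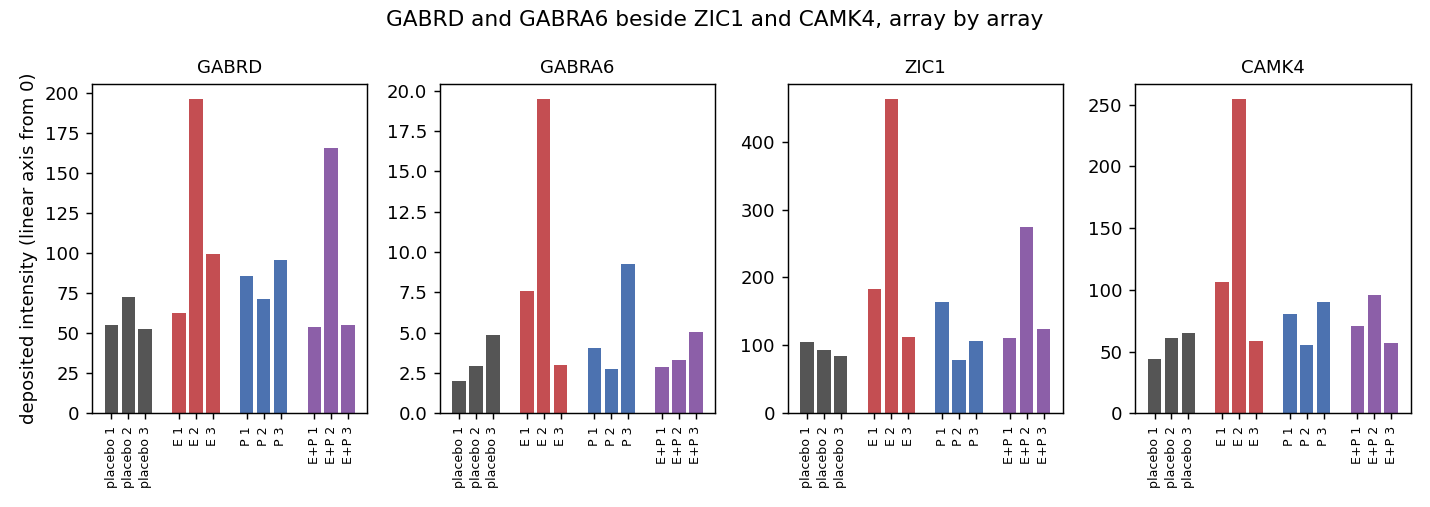
Deposited intensity (linear axis from 0) on each of the 12 arrays for GABRD, GABRA6, the cerebellar granule cell factor ZIC1 and the kinase CAMK4, in the placebo, estrogen (E), progesterone (P) and combined (E+P) groups; a bar is 1 array. All 4 genes are highest on estrogen array 2, and GABRD and ZIC1 are next highest on combined array 2 (165 and 275).

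GABRA2, an alpha subunit of limbic synapses, had 2 probe sets, and both fell under the filter for dim probe sets. The brighter read 40.4, 15.7 and 31.6 with placebo, 13.1, 26.9 and 40.9 with estrogen, 49.3, 27.4 and 42.0 with progesterone, and 49.96, 33.5 and 22.6 with both hormones, with overlap between all groups. The dimmer read 10.3, 12.3 and 18.7 with placebo, 21.3, 22.4 and 26.2 with estrogen, 19.2, 24.6 and 4.62 with progesterone, and 12.7, 15.4 and 12.4 with both hormones. On the dimmer probe set all estrogen arrays lay above all placebo and combined arrays as deposited, but no longer after quantile normalization. Among tested probe sets 2.87% had all estrogen arrays above placebo, and 2.63% had all combined arrays below estrogen. In the limma fit without the filter the estrogen values were −0.19 ± 0.40 and 0.47 ± 0.32 for the brighter and the dimmer (SE, adjusted p = 0.999 for each), so the probe sets of the gene differed in sign. With progesterone they were 0.31 ± 0.40 and −0.0081 ± 0.32.

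GABRB2 was then set against the other subunits by subtracting its log2 value from every probe set on the same array and fitting limma again over 7534 probe sets. Against the change of GABRB2 with progesterone, that of GABRB1 was lower by −1.05 ± 0.44 (SE, limma adjusted p = 0.0395) and that of GABRA5 by −1.12 ± 0.45 (adjusted p = 0.0352). For GABRD the difference was −0.58 ± 0.46 (adjusted p = 0.243) and for GABRA3 0.25 ± 0.67 (adjusted p = 0.721). Most of the array behaved like GABRB1 and GABRA5 here, since 72.6% of all probe sets passed in this subtracted table, so these 2 calls do not single out the receptor family. Every difference contains the same GABRB2 readings. When both hormones were compared with progesterone alone, GABRB1 differed from GABRB2 by 1.33 ± 0.44 (adjusted p = 0.0229), where 60.3% of probe sets passed, while GABRA5 (0.32), GABRA3 (0.45) and GABRD (0.83) did not pass. With estrogen alone and with both hormones against placebo, no other subunit differed from GABRB2 by limma at an adjusted or an unadjusted p under 0.05 (0% and 0.0133% of all probe sets passed after adjustment). For the interaction none of the 4 passed, where 0.995% of probe sets did. The number of differences called, 3 in all, was 0 without progesterone array 2 or 3, 1 without progesterone array 1, placebo array 2 or placebo array 3, and 4 without estrogen array 1 or 3.

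**Figure D4:**
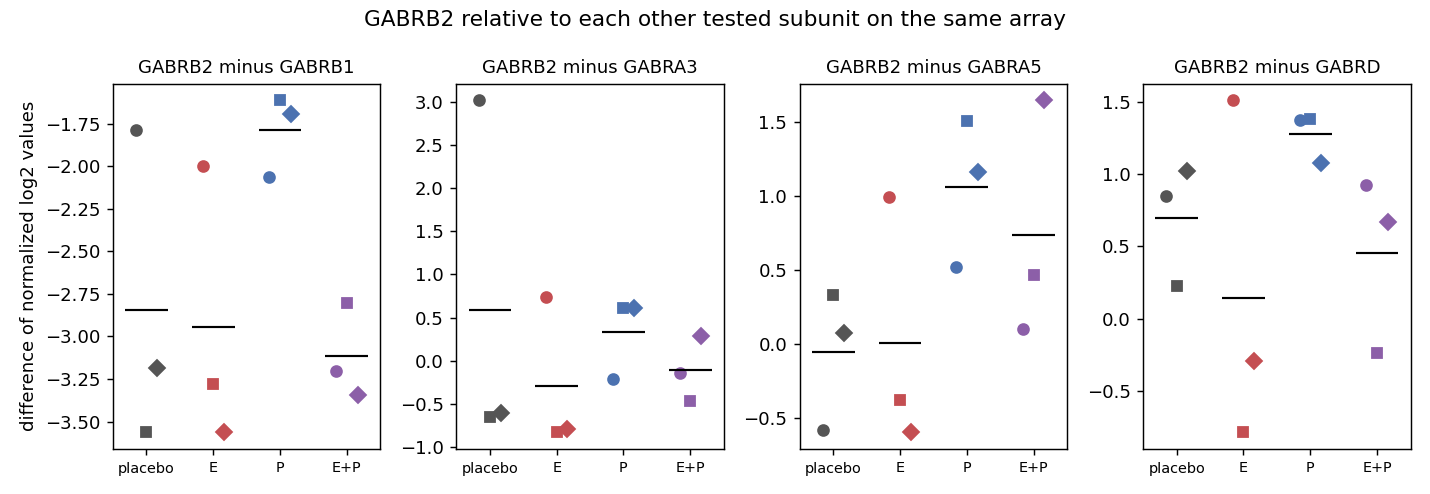
Difference of normalized log2 values, GABRB2 minus GABRB1, GABRA3, GABRA5 or GABRD on the same array (vertical axes differ, and only differences between arrays carry meaning), by group; circles, squares and diamonds are replicates 1, 2 and 3 and black bars are group means. GABRB2 minus GABRB1 is −2.06 to −1.61 on the progesterone arrays and −3.34 to −2.80 on the combined arrays, while placebo array 1, at −1.79, lies among the progesterone arrays.

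Within arrays, the gap between GABRB2 and GABRB1 on placebo arrays 1 to 3 was −1.79, −3.56 and −3.18. It was −2.06, −1.61 and −1.69 on the progesterone arrays and −3.20, −2.80 and −3.34 on the combined arrays. The progesterone and combined arrays did not overlap, as for 78.7% of all probe sets set against GABRB2 in this way, but the low GABRB1 reading of placebo array 1 put that array inside the progesterone range. The gap between GABRB2 and GABRD was 1.37, 1.38 and 1.08 with progesterone and 0.85, 0.22 and 1.02 with placebo, which did not overlap. That was so for 83.8% of all probe sets set against GABRB2, so neither separation is particular to GABRD or GABRB1.

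The probe sets whose log2 values most resembled those of GABRB2 over the 12 arrays, of 6675 single-symbol candidates, belonged to SCAPER (Pearson r = 0.94), the protocadherin PCDH7 (0.88), the interferon regulatory factor IRF3 (0.86), the guanylate kinase GUK1 (0.86) and the tyrosine phosphatase PTPN4 (0.85). These are descriptions of the closest of many candidates on arrays that share their scaling. SCAPER read 79.9 ± 10.5 (SD, n = 3) for placebo, 117 ± 65.8 under estrogen, 154 ± 15.8 under progesterone and 92.9 ± 8.8 under the combination, and like GABRB2 it was high on estrogen array 1, at 192. Second probe sets had r of 0.48 for SCAPER, 0.53 for GUK1, 0.80 for PTPN4 and −0.76 for PCDH7. For GABRA6 the closest were EMD, which encodes the nuclear membrane protein emerin (0.90), the neuronal calmodulin kinase CAMK4 (0.89) and the cochaperone DNAJB5 (0.80), each highest on estrogen array 2 at 216, 254 and 276. GABRA6 was below the offset on 10 of the 12 arrays, and without estrogen array 2 these r were 0.76, 0.56 and 0.81. Other probe sets of CAMK4 had r of 0.25 and 0.68.

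Genes that act on or beside the receptor were counted from lists, each gene by its brightest tested probe set, and no gene of these lists passed limma's adjusted threshold in any of the comparisons. Of 17 anchoring and trafficking genes, 10 were higher and 7 lower with progesterone (median 0.028), and the counts were the same with both hormones (median 0.070). The adaptor subunit AP2B1, which takes part in receptor endocytosis, read 702 ± 471 (SD, n = 3) with placebo and 1420.4 ± 162 with both hormones, a log2 difference of 1.23 ± 0.39 (limma adjusted p = 0.999). Of 7 genes of GABA synthesis, transport and breakdown, 2 were higher and 5 lower with progesterone (median −0.41). GLUL, the astrocytic glutamine synthetase, read 718 ± 172 for placebo and 510 ± 65.2 under progesterone, a log2 difference of −0.45 ± 0.20 (adjusted p = 0.572). SLC6A13, a GABA transporter, read 40.8 ± 8.9 with placebo and 100.1 ± 47.7 with estrogen, a log2 difference of 1.03 ± 0.34 (adjusted p = 0.999). SLC6A11, the astrocytic GABA transporter, gave 0.85 ± 0.30 for both hormones against progesterone (adjusted p = 0.511).

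Among 4 genes of GABA-B receptors and their potassium channels, 1 was higher and 3 were lower with progesterone (median −0.35). The channel subunit KCNJ6 read 235 ± 32.9 (SD, n = 3) with placebo, 144 ± 29.7 with progesterone and 234 ± 79.6 with both hormones, and its log2 values were −0.67 ± 0.24 with progesterone against placebo and 0.62 ± 0.24 with both against progesterone (SE, limma adjusted p = 0.527 and 0.546). The receptor subunit GABBR2 gave 0.57 ± 0.25 in the latter (adjusted p = 0.608). Of 8 genes that move chloride or bicarbonate, 0 were higher and 8 lower with progesterone (median −0.20, 1 at an unadjusted p under 0.05, where 4.31% of all probe sets were lower at that level). The bicarbonate cotransporter SLC4A4 read 470.1 ± 109 for placebo and 282 ± 25.6 under progesterone, a log2 difference of −0.67 ± 0.24 (adjusted p = 0.527). With both hormones against progesterone the chloride cotransporter SLC12A4 gave 0.48 ± 0.18 (adjusted p = 0.531). Neither the 7 tested genes of neurosteroid synthesis and modulation nor the 12 tested kinases and phosphatases of the receptor held 1 at an unadjusted p under 0.05 in any comparison. Their medians with progesterone were 0.075 and 0.028.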

How the data were processed

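The authors deposited linear intensity values, 1 for each probe set, on 12 arrays with 1 monkey each. Their trimmed means were alike, at about 200.1 on each array, as found here from the values. How probes were summarized, and with which software, is not given in the sources used here. The platform's probe table gave gene names (10943 non-control probe sets with 1 symbol, 545 with several, 1070 with none). Values were converted to log2(intensity + 8.26), the offset being the pooled 10th percentile. Array medians spanned 0.21, over the limit of 0.15, so arrays were quantile normalized. The 67 controls and the dimmest 40% of probe sets were left out (5023). The log2 changes understate those of dim probe sets. The table was fitted with limma 3.58.1 in R 4.3.3 over all 12 arrays (2-sided, Benjamini-Hochberg, 0.05) after a test on simulated data. Text names all member probe sets, the 5 probe sets most like GABRB2 and 3 most like GABRA6. From each list, up to 3 genes per comparison with the smallest unadjusted p under 0.05 were picked out, and not all of them are named. Members, lists and tests were chosen with earlier results of these data known. Same-numbered estrogen and combined arrays deviated together (r of 0.41, 0.30 and 0.13), and the labels state no pairing. Number 1 joins the arrays with high ribosomal signal, and number 2 those with the highest GABRD. Whether the monkeys were paired was not tested. A fit of these 6 arrays blocked by number was added. Precision is limited by 3 arrays per group. Alternatives covered scaling, filter, offset, spread, weights, block and left-out arrays.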

Additional observations from a re-analysis of the deposited data

How the results depend on the processing

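The count of subunit probe sets called was 0 in each of 7 comparisons and stayed 0 under every alternative by limma (169 of 169 counts). Of 707 member log2 values under alternatives, 669 kept the sign of the reported value, 38 did not, and 23 moved by more than its SE. The 3 differences called for GABRB2 against the other subunits became 2 with the lowest 60% of probe sets left out, 4 in fits of only the groups compared, 9 with array weights, 4 without estrogen 1 and estrogen plus progesterone 1, and 2 without estrogen 2 and estrogen plus progesterone 2, an alternative chosen after seeing the data. They were 0 to 4 when 1 array was left out, and the cause was not tested. Over all probe sets the calls ranged over the alternatives from 0 to 11 for progesterone against placebo (3 reported), 0 to 12 for both hormones against progesterone (1), 0 to 2 for both against placebo (1), 0 to 2 for both against estrogen (0), 0 to 2 for the interaction (0) and 0 to 10 for the F test (4). Over all groups, same-numbered arrays share only a number: their deviations correlated between −0.22 and 0.41, and 5 of 12 arrays were most like one of their own number. With the replicate block, 0 members and 3 differences from GABRB2 were called, GABRB2 kept a change of 1.003 (adjusted p = 0.303), and calls for progesterone over all probe sets went from 3 to 0. The estrogen and combined arrays are the exception, with correlations of 0.41, 0.30 and 0.13 for numbers 1 to 3. Fitted alone with the block, an alternative chosen after seeing the data, they gave 0 members and 0 probe sets called, with GABRB2 at −0.099 ± 0.25 and GABRD at −0.41 ± 0.19 (adjusted p = 0.978 and 0.923). GABRA6 and both GABRA2 probe sets were too dim for these tests.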

Other observations

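Outside the 7 genes, 4 further GABA receptor subunit genes had a single-symbol probe set. GABRG3, a gamma subunit, read 131, 199 and 187 with placebo, 363, 170.5 and 122.9 with estrogen, 188, 272 and 169 with progesterone, and 180.2, 180.3 and 192 with both hormones. Its highest value was on estrogen array 1, and its log2 changes against placebo were 0.22, 0.27 and 0.093 with estrogen, progesterone and both. GABRR2, a rho subunit best known from the retina, read 50.1, 76.5 and 102 with placebo, 27.7, 58.7 and 43.8 with estrogen, 60.5, 79.9 and 114 with progesterone, and 26.7, 65.6 and 94.98 with both hormones. Its changes were −0.76, 0.14 and −0.42, and both arrays with high ribosomal signal gave its lowest readings. Neither gene passed limma's adjusted threshold (adjusted p at least 0.789 over the comparisons). GABRP and GABRR1 were below the filter.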
